A study of Mus musculus with 12 samples.

Results

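The heterogeneous nuclear ribonucleoproteins (hnRNPs), the SR proteins and core proteins of the spliceosome are described here in skeletal muscle of mice flown in space. The genes were taken by symbol, as those that begin with Hnrnp, Srsf, Snrp, Sf3 or U2af, after 4 symbols ending in -ps were left out. The rule gave 56 of the 36008 genes in the expression table, with 20 hnRNP genes, 11 SR genes and 25 core spliceosome genes. Of these, 53 had a level above the filter (over 5 TPM, a level scaled for transcript length and library size, in at least 1 of the 12 libraries) and were tested among 10481 genes, with 20, 10 and 23 in the respective classes. The genes not tested were Srsf12 (0 to 0.253 TPM), Sf3b5 (2.29 to 3.53 TPM) and Snrpert, which is annotated as a processed pseudogene and was listed at 0 in 10 of 12 libraries. In the tables of alternative splicing, 16 of the genes held 26 events in each muscle, out of 2423 events in the gastrocnemius and 2416 in the quadriceps.

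The RNA came from the gastrocnemius and quadriceps muscles of the hind limb in 6 female mice, which gave 4 groups of 3 libraries. Mice M11, M12 and M20 spent 9 weeks on the International Space Station, and the ground mice M02, M03 and M08 lived for the same time in matching hardware on Earth. All were 30 weeks old at the start, and all 6 received injections of phosphate-buffered saline, since they were the control arm of a larger drug experiment. The labels give the strain as C57BL/6 and the study's methods give it as BALB/c, and which is right was not settled here. The carcasses were frozen and the muscles were dissected after thawing, and each library holds the RNA of a whole muscle with all of its cell types. Because each mouse gave both muscles, the flight effects in the gastrocnemius and the quadriceps are not independent of each other. In whole muscle, fewer cells of a type and less RNA per cell cannot be told apart.

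Splicing removes introns from a nascent transcript. The small nuclear ribonucleoproteins (snRNPs) carry a ring of Sm proteins and recognise the splice sites, U2AF binds the end of the intron, and the SF3 proteins hold the U2 snRNP at the branch site. SR proteins bind mainly to exons and mostly favour their inclusion, while many hnRNPs coat the transcript and favour skipping of nearby exons. Many genes of both families also carry exons with an early stop codon, and their inclusion marks the transcript for nonsense-mediated decay (NMD), a route by which such proteins limit their own production.

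The libraries were alike in their listed totals, which summed to between 923295 and 966638 TPM, and the tested genes correlated within groups at r of 0.95 to 0.981. Markers of muscle fibers, which check the labelled tissue, were all present and summed to between 82830 and 88984 TPM in the gastrocnemius and between 106513 and 119211 TPM in the quadriceps. The quadriceps library of ground mouse M08 stood apart, with 18172 genes above 0 TPM against 20291 to 21265 in the others. In the splicing tables, ground sample 3 of the quadriceps had 0 junction reads at 79 events, against 0 to 2 events in every other sample. These tables list samples by position and not by name, so that sample cannot be assigned to a mouse.

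Some of the alternative exons of the members are shown first, on the strand of the gene and 5′ to 3′, from the transcripts of GENCODE vM21 on GRCm38 (mm10). The alternative exons of 3 closely related hnRNPs, which bind AU-rich RNA and share a glycine- and tyrosine-rich tail, are exon 7 of Hnrnpd (chr5:99963731-99963877, minus strand, 147 bases), exon 6 of Hnrnpdl (chr5:100036481-100036651, minus strand, 171 bases) and exon 7 of Hnrnpab (chr11:51601750-51601890, minus strand, 141 bases). All are coding and a multiple of 3 bases in length, so that the frame is kept when they are skipped. Capitals mark the longest run shared by Hnrnpd and Hnrnpdl (14 bases) and, in Hnrnpab, the longest run it shares with Hnrnpd (13 bases).
Hnrnpd exon 7: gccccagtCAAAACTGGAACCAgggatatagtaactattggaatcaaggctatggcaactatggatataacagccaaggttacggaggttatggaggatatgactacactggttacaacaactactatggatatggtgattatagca
Hnrnpdl exon 6: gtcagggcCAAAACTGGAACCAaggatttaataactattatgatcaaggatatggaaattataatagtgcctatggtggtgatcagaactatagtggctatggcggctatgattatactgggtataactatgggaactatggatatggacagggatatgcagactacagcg
Hnrnpab exon 7: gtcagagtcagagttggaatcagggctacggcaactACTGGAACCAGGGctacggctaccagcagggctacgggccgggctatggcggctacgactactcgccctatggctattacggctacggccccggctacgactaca
Aligned over 171 columns, the exons of Hnrnpd and Hnrnpdl were 63.7% identical, and those of Hnrnpd and Hnrnpab were 59.6% identical.

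The second set comes from the paralogs Hnrnph1 and Hnrnph3, whose proteins bind runs of G. Exon 5 of Hnrnph1 (chr11:50381459-50381597, plus strand) and exon 3 of Hnrnph3 (chr10:63018760-63018898, minus strand) are both coding and 139 bases long, which is not a multiple of 3. They were identical at 126 of 139 positions (90.6%), and capitals mark the 13 that differ.
Hnrnph1 exon 5: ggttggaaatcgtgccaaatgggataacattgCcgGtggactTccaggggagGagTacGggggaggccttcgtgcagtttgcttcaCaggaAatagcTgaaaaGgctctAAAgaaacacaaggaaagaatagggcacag
Hnrnph3 exon 3: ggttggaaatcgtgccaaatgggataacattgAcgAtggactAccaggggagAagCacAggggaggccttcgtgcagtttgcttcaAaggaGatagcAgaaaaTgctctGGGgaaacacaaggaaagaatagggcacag
Their longest identical run was 32 bases.

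The next exons are short, coding and included in only part of the transcripts. Exon 2 of Hnrnpa2b1 (chr6:51467391-51467426, minus strand) and exon 7 of Srsf7 (chr17:80202169-80202204, minus strand) have 36 bases each, and exon 3 of Hnrnpm (chr17:33670081-33670133, minus strand) has 53.
Hnrnpa2b1 exon 2: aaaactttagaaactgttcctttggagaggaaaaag
Srsf7 exon 7: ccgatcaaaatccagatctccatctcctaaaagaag
Hnrnpm exon 3: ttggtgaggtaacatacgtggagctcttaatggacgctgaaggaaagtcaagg

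The last set holds exons whose included form is annotated only as NMD or noncoding. For 5 of these the bases from the start of the exon to the annotated stop codon are given, with the stop codon in capitals. They lie in Sf3b1 (chr1:55014869-55014924, minus strand), Snrpb (chr2:130176629-130176752, minus strand), Hnrnpll (chr17:80044940-80045022, minus strand), Hnrnpl (chr7:28817335-28817404, plus strand) and Srsf6 (chr2:162932815-162933082, plus strand).
Sf3b1 exon 5: gcttctattctgctgctTGA
Snrpb exon 3: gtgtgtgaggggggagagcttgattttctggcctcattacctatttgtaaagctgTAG
Hnrnpll exon 7: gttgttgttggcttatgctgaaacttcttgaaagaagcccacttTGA
Hnrnpl exon 6: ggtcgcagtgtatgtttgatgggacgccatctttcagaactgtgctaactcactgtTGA
Srsf6 exon 3: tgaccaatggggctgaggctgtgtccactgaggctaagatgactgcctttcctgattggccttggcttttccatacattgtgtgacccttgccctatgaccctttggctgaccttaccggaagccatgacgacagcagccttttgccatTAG
In each, the annotated coding frame of the included form ends inside the alternative exon.

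The members were abundant. Their median level over the 12 libraries was 38.8 TPM, against 14.0 TPM over all tested genes. Among the hnRNPs the highest mean was that of Hnrnpa2b1 (439 TPM), which packages and transports RNA, followed by the C-tract binding protein Hnrnpk (192 TPM), Hnrnpm (189 TPM) and Hnrnph1 (146 TPM). The means of Hnrnpk and Hnrnpm differed by less than the spread between libraries. Among the SR genes the order was Srsf5 (204 TPM), Srsf11 (95.7 TPM), Srsf2 (84.3 TPM) and Srsf1 (46.4 TPM), and the ranges of Srsf11 (78.6 to 121 TPM) and Srsf2 (75.1 to 98.8 TPM) overlapped. The core genes were lower, led by the branch site protein Sf3b1 (64.3 TPM), the Sm protein Snrpb (59.3 TPM), the 3′ splice site reader U2af1 (49.9 TPM) and the Sm protein Snrpd3 (48.9 TPM). The lowest tested members were Sf3b4 (4.67 TPM) and Snrpf (5.66 TPM).

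**Figure D1:**
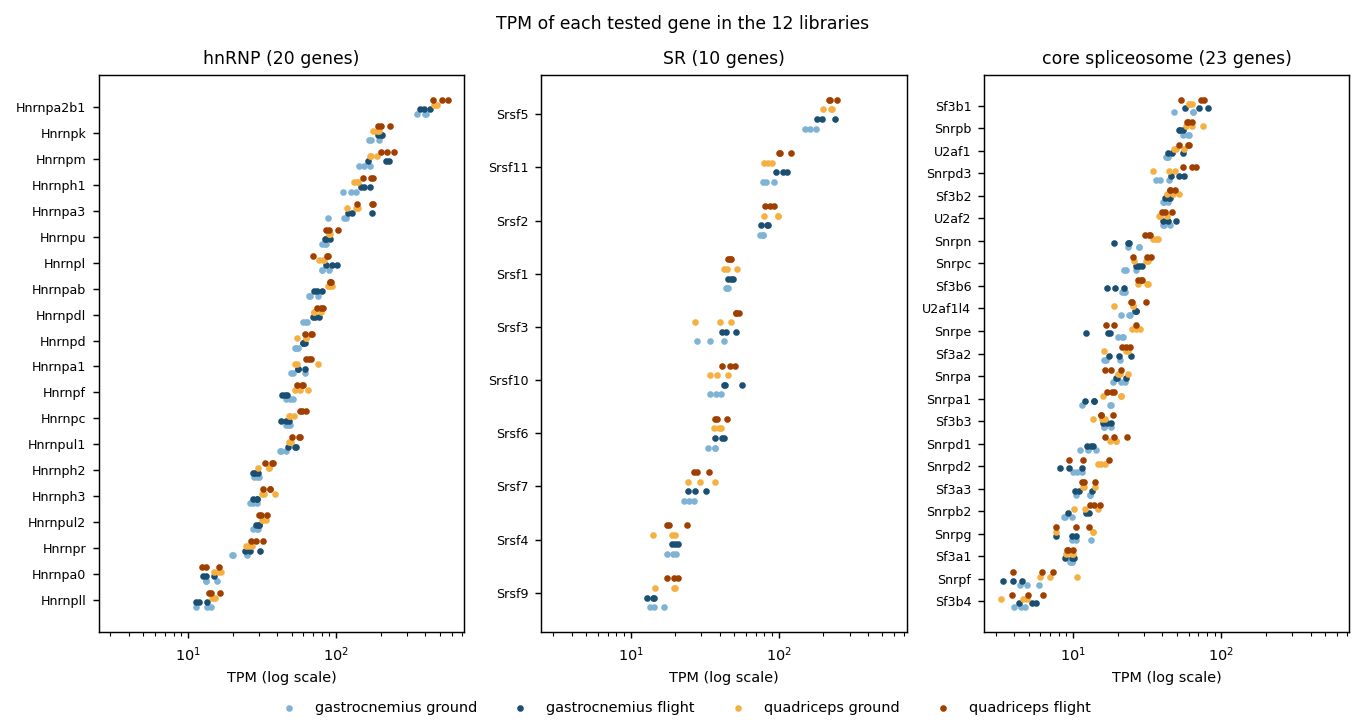
Level of each tested hnRNP, SR and core spliceosome gene in the 12 libraries (TPM, log axis), with points coloured by group. Hnrnpa2b1 stood at the top with 353 to 564 TPM, and the points of the 4 groups lay close together for most genes.

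Among libraries of a group, the hnRNPs varied less than the tested genes at large, while the core genes lay near them. The hnRNPs were also abundant, with a median level of 59.7 TPM, and genes of like level were not compared. The median coefficient of variation within groups was 7.14% for the hnRNPs, 10.6% for the SR genes and 12% for the core genes, against 12.6% over all tested genes. Hnrnpul2, Hnrnpab, Hnrnpdl and Hnrnpc each had a coefficient under 5%, and the widest among the tested members was that of Snrpf at 27.8%. Of the transcript sequence of Snrpf, 92.1% of its 31-base words also occur in another gene, mostly Ccdc38, on the same or the opposite strand. The strands were not counted apart, and the level of Snrpf may be uncertain. The same share was 66.2% for Hnrnpf, 51.2% for Sf3b4, 49.6% for U2af1l4, 41% for Srsf4 and 34.5% for Snrpn, whereas Hnrnpa0, Srsf6 and Srsf9 shared none.

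The first question of the design is what spaceflight did to these genes within a muscle. In the gastrocnemius, several hnRNP and SR genes stood higher in the flight libraries with the smallest p in Hnrnph1, Hnrnpdl, Srsf11, Hnrnpm and Srsf5, while the core genes were spread around 0. No member passed the call rule (limma on log2(TPM + 1), Benjamini-Hochberg adjusted p under 0.05 and a change over 1.5-fold), a rule that 0.229% of all tested genes passed, and the smallest adjusted p of a member was 0.218. At an unadjusted p under 0.05, 11 members were higher and 1 was lower (20.8% and 1.89% of the 53), against 8.52% and 6.55% of all genes. Flight and ground libraries did not overlap in 12 members that were higher and 1 that was lower, against 12.5% and 8.55% of all genes. A log2 change above 0 was seen in 36 of 53 members (67.9%), against 53.6% of all genes, and the median log2 change was 0.08 over the members and 0.02 over all genes. The count of 11 higher members changed with the library left out: it was 4 without ground mouse M02, 4 without ground mouse M08 and 3 without flight mouse M20. It was 12 without ground mouse M03 or flight mouse M11, and 11 without flight mouse M12. In these smaller fits 34 to 38 members were above 0, and the members' median log2 change was 0.0595 to 0.115. The share of all genes at that p was not computed for them. With the libraries rescaled by the median ratio of their genes, 10 members were higher and 3 lower at an unadjusted p under 0.05 by limma, and 35 were above 0. The median log2 change then became 0.05 over the members and -0.01 over all genes. The shares of all genes for these counts were not computed at that scaling, and those given above are from the unscaled fit.

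The classes differed in these counts. For the hnRNPs, 15 of 20 were above 0, 6 had an unadjusted p under 0.05, all of them higher, and the median log2 change was 0.10. Of the SR genes, 9 of 10 were above 0, 4 had such a p, again all higher, and the median was 0.16. As single libraries were left out, the hnRNP median ran from 0.07 without ground mouse M08 to 0.16 without ground mouse M03. The SR median ran from 0.12 without flight mouse M12 to 0.23 without flight mouse M11. Of the core genes, 12 of 23 were above 0, 1 was higher and 1 lower at that p, and the median was 0.01, which lay between -0.02 and 0.06 as single libraries were left out. The differences between the classes were not tested.

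Hnrnph1 was listed at 137, 125 and 111 TPM in ground mice M02, M03 and M08 and at 153, 169 and 148 TPM in flight mice M11, M12 and M20. All flight libraries lay above all ground libraries, by 0.33 ± 0.10 (SE) on the log2(TPM + 1) scale, with a limma Benjamini-Hochberg adjusted p of 0.218. Hnrnpm, which binds GU-rich RNA, was at 168, 154 and 143 TPM on the ground and at 165, 226 and 217 TPM in flight. Here flight mouse M11 lay among the ground mice, and the log2 difference was 0.38 ± 0.13 (adjusted p = 0.256, limma). Without M11 the difference was 0.52 with an adjusted p of 0.0489, at a size still under 1.5-fold. Hnrnpdl was at 60.1, 63.1 and 62.2 TPM on the ground and at 72.4, 70.1 and 76.4 TPM in flight, a log2 difference of 0.24 ± 0.07 (adjusted p = 0.228, limma) with no overlap.

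Among the SR genes, Srsf11 was at 82.3, 93.5 and 78.6 TPM on the ground and at 95.5, 107 and 113 TPM in flight (log2 difference 0.31 ± 0.10, limma adjusted p = 0.236). Srsf5, the most abundant SR gene, was at 151, 177 and 162 TPM on the ground and at 182, 197 and 239 TPM in flight (0.33 ± 0.12, limma adjusted p = 0.269). Neither gene overlapped between the groups. Srsf10, which represses splicing when it is dephosphorylated, was at 37.9, 41 and 34.1 TPM on the ground and at 43.3, 43 and 56.4 TPM in flight (0.32 ± 0.13, limma adjusted p = 0.305), again with no overlap. Without flight mouse M20, the highest of the group, the difference was 0.213 for Srsf5 and 0.195 for Srsf10.

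Among the core genes, the smallest p in each direction belonged to proteins of the Sm ring. Snrpd3 was at 36, 38.3 and 44.2 TPM on the ground and at 56.3, 46 and 51.9 TPM in flight, a log2 difference of 0.37 ± 0.11 (limma adjusted p = 0.218). Snrpe was at 20, 21.6 and 21.3 TPM on the ground and at 17.6, 17.1 and 12.3 TPM in flight, a log2 difference of -0.41 ± 0.14 (limma adjusted p = 0.249). The groups of both genes were apart, in opposite directions, and without flight mouse M20 the difference of Snrpe was -0.258. Snrpc, a U1 snRNP protein that contacts the 5′ splice site, was at 22.6, 26.6 and 22.1 TPM on the ground and at 27.7, 29 and 26.6 TPM in flight (0.22 ± 0.10, limma adjusted p = 0.344), and flight mouse M20 sat level with ground mouse M03.

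In the quadriceps, the 5 members with the smallest p were Snrpd3, Hnrnpm, Srsf11, Hnrnph1 and Hnrnpc, each higher in flight. No member was called (0.0286% of all genes were), and the smallest adjusted p of a member was 0.330. At an unadjusted p under 0.05, 7 members were higher (these 5 with Hnrnpa3 and Srsf3) and 0 lower by limma, against 5.66% and 5.18% of all genes. Flight and ground did not overlap in 7 members that were higher and in 1 that was lower (13.2% and 1.89% of the 53), against 9.24% and 8.12% of all genes. A log2 change above 0 was seen in 34 of 53 members (64.2%), against 52.0% of all genes, with a median log2 change of 0.07 over the members and 0.01 over all genes. The members' median was 0.03 without flight mouse M20 and 0.05 without ground mouse M08. Under the median-ratio rescaling, 5 members were higher and 2 lower at an unadjusted p under 0.05 by limma, and 30 were above 0. The median log2 change then became 0.05 over the members and -0.01 over all genes. Shares of all genes for these counts were again not computed at that scaling.

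By class, 16 of 20 hnRNPs were above 0 with a median log2 change of 0.11, and 4 had an unadjusted p under 0.05. Of the SR genes, 7 of 10 were above 0 with a median of 0.09, and 2 had such a p. The SR median was 0.03 without flight mouse M20 or ground mouse M02, and 0.14 without flight mouse M11 or ground mouse M03. Of the core genes, 11 of 23 were above 0 with a median of -0.01, and 1 had such a p. The core median lay on either side of 0 as libraries were left out (-0.05 to 0.04).

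Snrpd3 was at 44.6, 48.5 and 34.4 TPM in ground mice M02, M03 and M08 and at 63.8, 55.4 and 67.7 TPM in flight mice M11, M12 and M20. The log2 difference of 0.55 ± 0.14 was the largest among the named members (limma adjusted p = 0.330). Hnrnpm was at 170, 189 and 171 TPM on the ground and at 202, 246 and 221 TPM in flight (0.33 ± 0.09, limma adjusted p = 0.344). Hnrnph1 was at 132, 140 and 138 TPM on the ground and at 172, 178 and 151 TPM in flight (0.28 ± 0.08, limma adjusted p = 0.347). In all 3 genes every flight library lay above every ground library.

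Hnrnpc, which binds runs of U and forms part of the core hnRNP particle, was at 49.1, 48 and 51.6 TPM on the ground and at 57.1, 62.9 and 58.7 TPM in flight (0.26 ± 0.08, limma adjusted p = 0.351). Srsf11 was at 85.2, 89.7 and 79.8 TPM on the ground and at 102, 121 and 101 TPM in flight (0.34 ± 0.09, limma adjusted p = 0.344). Neither overlapped. Srsf3, the smallest SR protein, was at 39.9, 47.3 and 27.2 TPM on the ground and at 51.6, 51.1 and 53.5 TPM in flight (0.47 ± 0.19, limma adjusted p = 0.445), with the lowest value in the library of M08 that stood apart. Without M08 the Srsf3 difference was 0.255. Srsf10 had a log2 difference of 0.24 ± 0.13 (limma adjusted p = 0.540), which was 0.148 without M08.

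Snrpe again had lower values in flight, at 26.4, 16.7 and 19 TPM against 28.4, 26.4 and 25 TPM on the ground, but M11 lay among the ground mice (-0.37 ± 0.17, limma adjusted p = 0.481), and the difference was -0.238 without M12. Snrpn, the imprinted SmN paralog of Snrpb, was the member whose flight libraries all lay below the ground libraries, at 32.6, 30.5 and 32.8 TPM against 34.3, 37.2 and 36.3 TPM (-0.16 ± 0.08, limma adjusted p = 0.505).

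**Figure D2:**
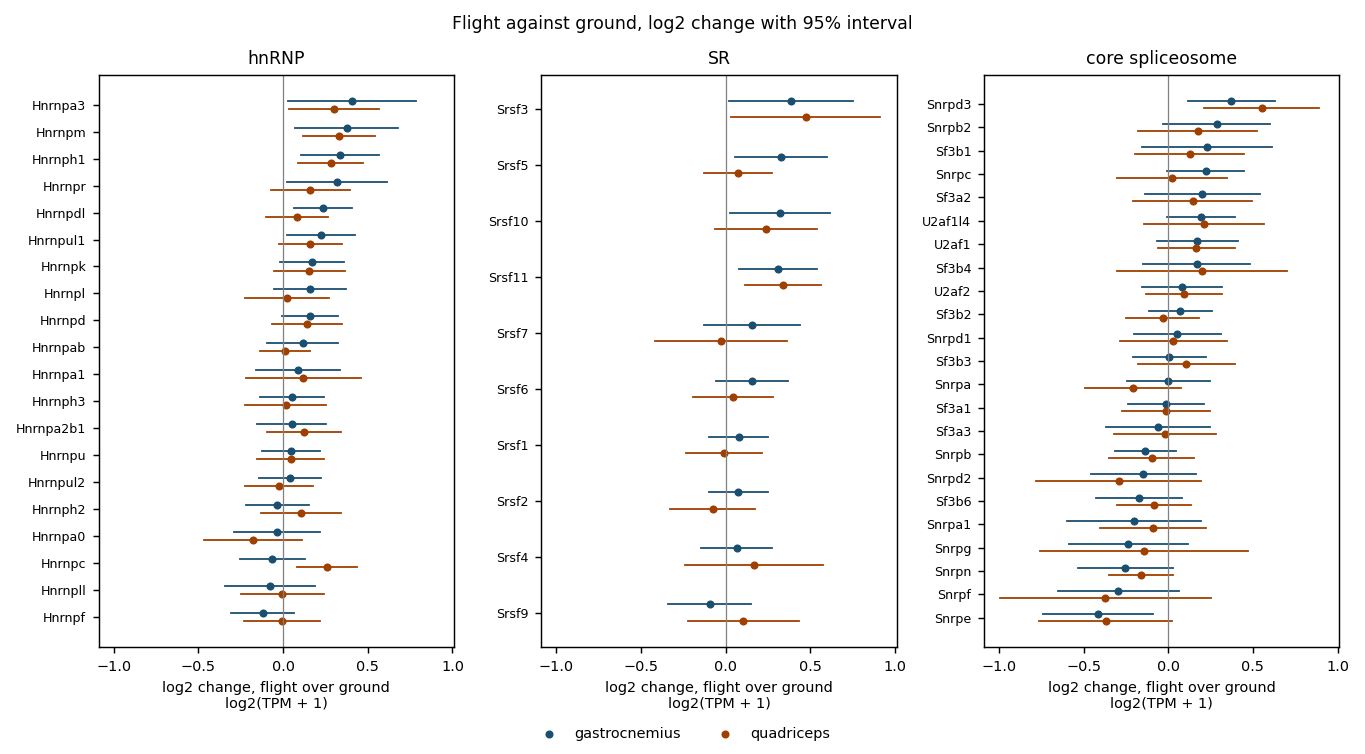
Difference of flight from ground in log2(TPM + 1) for each tested member, gastrocnemius and quadriceps side by side, with 95% intervals as lines and 1 panel per class. Snrpd3 was at 0.37 and 0.55 and Snrpe at -0.41 and -0.37, and no member reached an adjusted p under 0.05 in either muscle.

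Summed over a class, the hnRNPs gave 1557 to 1698 TPM in the ground libraries of the gastrocnemius and 1748 to 1914 TPM in the flight libraries. In the quadriceps they gave 1840 to 1884 TPM on the ground and 1985 to 2137 TPM in flight, so that the groups did not overlap in either muscle. The SR genes gave 512 to 579 against 587 to 691 TPM in the gastrocnemius and 587 to 656 against 641 to 707 TPM in the quadriceps, where the ranges overlapped. The core genes gave 531 to 577 against 548 to 585 TPM in the gastrocnemius and 598 to 641 against 610 to 680 TPM in the quadriceps, overlapping in both. The sums are carried by the most abundant genes. The listed TPM totals were themselves higher in flight than on the ground, without overlap, in both muscles (937534 to 946314 against 923295 to 924762 TPM in the gastrocnemius and 964792 to 966638 against 952229 to 961683 TPM in the quadriceps). As a mean share of these totals, the hnRNPs made up 0.176% on the ground and 0.193% in flight in the gastrocnemius. In the quadriceps their shares were 0.195% and 0.215%. For the SR genes the shares were 0.0582% and 0.0674%, then 0.0652% and 0.0702%, and for the core genes 0.0592% and 0.0604%, then 0.0653% and 0.0666%. The part of the totals in the sums was not tested.

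**Figure D3:**
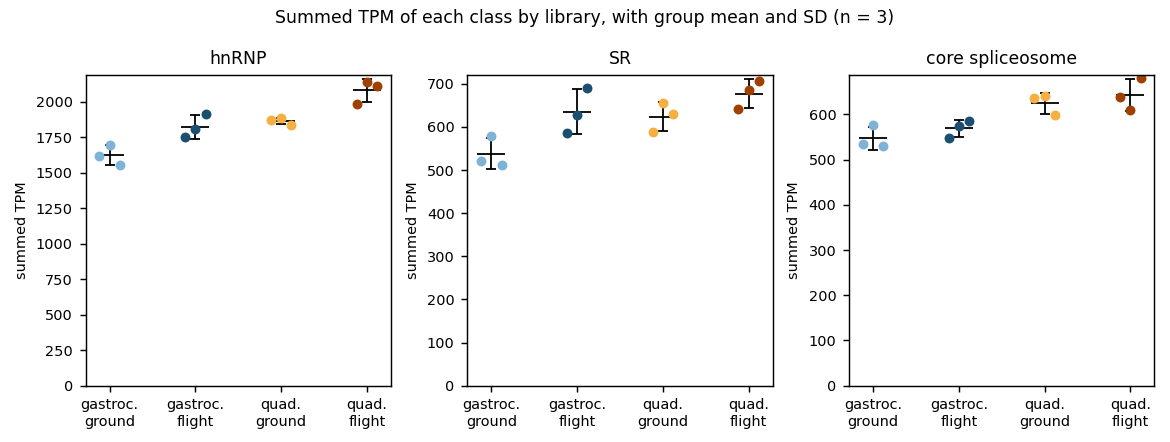
Summed TPM of the hnRNP, SR and core spliceosome genes in each of the 12 libraries, by group, with the group mean and SD (n = 3) as black marks. The hnRNP sums of flight mice lay above those of ground mice in both muscles, 1748 to 1914 against 1557 to 1698 TPM in the gastrocnemius.

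Whether flight acted differently in the muscles was tested as an interaction with the mouse as a block. No member was called, nor was any gene of the table (0%). At an unadjusted p under 0.05 there were 2 members, against 2.60% of all genes in which the flight effect was higher in the quadriceps and 2.49% in which it was lower. Hnrnpc had the higher flight effect in the quadriceps (interaction of 0.33 on the log2 scale, limma adjusted p = 0.957): its gastrocnemius values were 46.2, 49.1 and 47.2 TPM on the ground and 45.5, 42.4 and 48.4 TPM in flight. Srsf5 had the lower one (-0.25, limma adjusted p = 0.957): its quadriceps values were 198, 225 and 229 TPM on the ground and 218, 223 and 247 TPM in flight. With 3 mice a group, these adjusted p values do not show that the effects were alike.

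More members passed the test between the muscles than between flight and ground. Averaged over condition and compared within mice, 18 members were higher in the quadriceps at an adjusted p under 0.05 and 0 were lower (24.4% and 4.61% of all genes), with 9 hnRNPs, 2 SR genes and 7 core genes. None exceeded 1.5-fold and so none was called, against 3.33% of all genes. A log2 difference above 0 was seen in 46 of 53 members, against 68.6% of all genes, and 20 members were higher in the quadriceps of all 6 mice, against 26.0%. The median log2 difference was 0.17 over the members and 0.11 over all genes. With the libraries rescaled by the median ratio of their genes, the median over all genes became 0.02 and that over the members 0.08. At that scaling 37 of 53 members were above 0, and 8 had an adjusted p under 0.05. Shares of all genes for these 2 counts were not computed, and the shares above are from the unscaled fit. The count of 18 was 8 without flight mouse M11 and 11 without ground mouse M02 or M03.

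The hnRNPs that were higher in the quadriceps included Hnrnpab and the abundant Hnrnpa2b1. Hnrnpab, a regulator that binds single-stranded nucleic acids, was at 65.6, 75.8 and 66.7 TPM in the gastrocnemius of the ground mice and at 70.9, 74.5 and 80.2 TPM in that of the flight mice. In the quadriceps it was at 88.4, 93.2 and 90.4 TPM and at 91.3, 90.9 and 91.7 TPM, above every gastrocnemius library (log2 difference 0.33, limma adjusted p = 0.00341). Hnrnpa2b1 was at 401, 394, 353, 369, 390 and 431 TPM in the gastrocnemius and at 479, 463, 457, 448, 564 and 521 TPM in the quadriceps of the same mice, again without overlap (0.32, limma adjusted p = 0.00379). Hnrnpf had a log2 difference of 0.30 (limma adjusted p = 0.00925), which was 0.21 with an adjusted p of 0.0588 under the median-ratio scaling. The others past the threshold were Hnrnph2, Hnrnph3, Hnrnpa3, Hnrnpc, Hnrnpll and Hnrnpdl.

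Of the SR genes, Srsf5 (0.29, limma adjusted p = 0.00529) and Srsf9 (0.36, limma adjusted p = 0.00894) passed. Srsf9 was at 13.6, 16.7, 14.3, 14.1, 12.9 and 14.4 TPM in the gastrocnemius and at 14.7, 19.9, 19.6, 17.6, 20.8 and 19.7 TPM in the quadriceps, where ground mouse M02 had the lowest value. Srsf2 did not pass (0.17, limma adjusted p = 0.0902). The SR genes that passed were thus the most abundant and the least abundant of the tested ones.

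Among the core genes, 7 of 23 passed, and the median log2 difference was 0.17, as it was for the hnRNPs. Snrpn was at 23.6, 27.8, 27.8, 23.8, 18.8 and 23.5 TPM in the gastrocnemius and at 34.3, 37.2, 36.3, 32.6, 30.5 and 32.8 TPM in the quadriceps (0.48, limma adjusted p = 0.00160). Sf3b6, the subunit that sits beside the branch point adenosine, was at 21.9, 22.5, 21.4, 22.1, 17 and 19.2 TPM against 27.3, 31.5, 31.8, 29.3, 27.2 and 28.6 TPM (0.49, limma adjusted p = 0.00182). Both were apart in every library. Snrpd1, another Sm ring protein, was at 11.1, 14.2, 12.5, 12.4, 13.7 and 13.2 TPM against 19.6, 17.8, 19.5, 23.1, 18.9 and 16.5 TPM (0.54, limma adjusted p = 0.00434). This was the largest difference of a named member, 1.46-fold on the log2(TPM + 1) scale, and it passed 1.5-fold when ground mouse M03 or flight mouse M20 was left out. Snrpe, Snrpf, Snrpb2 and U2af1 also passed.

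**Figure D4:**
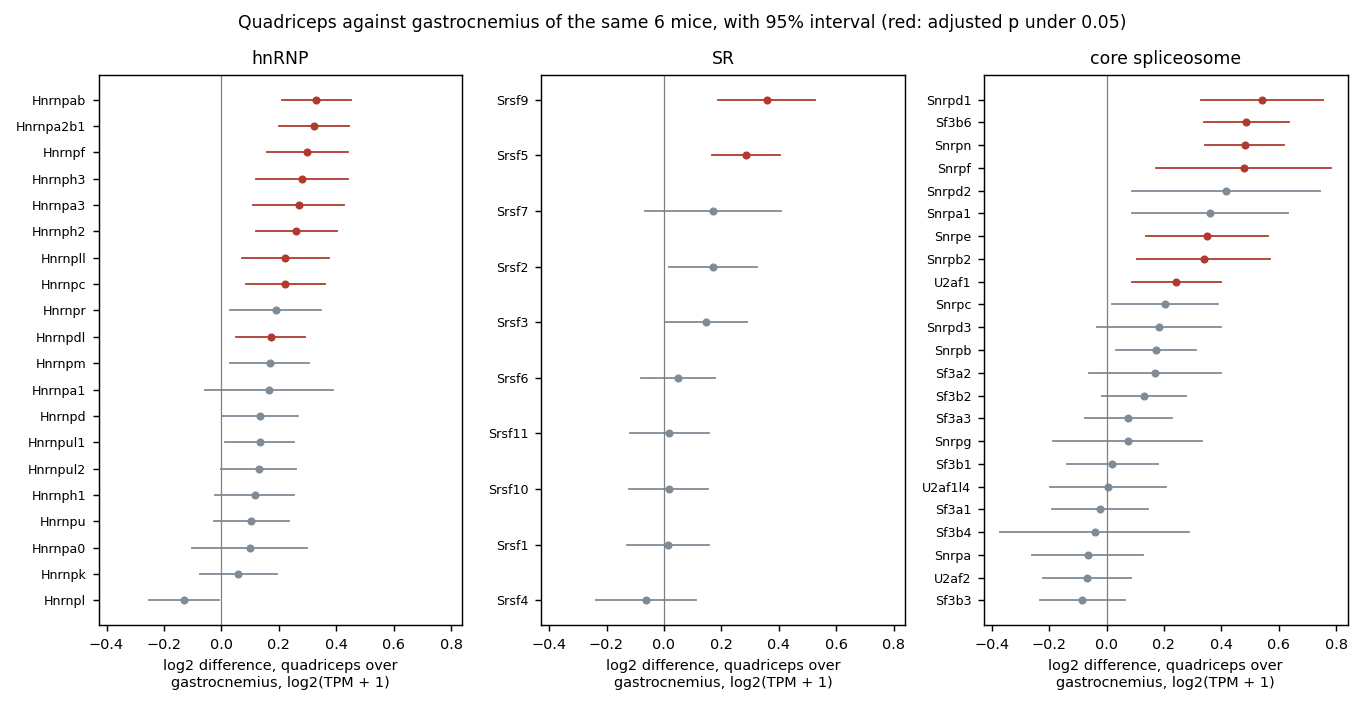
Difference of quadriceps from gastrocnemius in log2(TPM + 1) for each tested member, with 95% intervals from the fit with the mouse as a block. The points of 46 of 53 members lay above 0, and the 18 in red had an adjusted p under 0.05.

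Other genes of the splicing machinery, in lists outside the symbol rule, were counted in the same way. In the gastrocnemius, unadjusted p values under 0.05 were reached by 12 higher and 0 lower of 46 other spliceosome proteins, by 9 and 0 of 25 SR-related proteins and SR kinases, by 11 and 0 of 42 other hnRNP-related RNA-binding proteins, and by 5 and 0 of 17 exon junction complex and NMD genes. The U snRNP proteins outside the rule gave 2 higher and 1 lower of 33, and the snRNP assembly genes 0 and 0 of 15. In the quadriceps the counts in the same order were 7 and 0, 7 and 0, 7 and 0, 1 and 0, 0 and 3, and 0 and 1. Over all genes, 8.52% were higher and 6.55% lower at that p in the gastrocnemius, and 5.66% and 5.18% in the quadriceps. As with the members in the gastrocnemius, the counts changed with the library left out. With 1 library left out at a time, the higher genes of the first 3 lists numbered 5 to 12, 5 to 9 and 4 to 11 in the gastrocnemius, lowest without flight mouse M20 or ground mouse M08, and 3 to 7, 4 to 9 and 3 to 9 in the quadriceps, lowest without M20 or ground mouse M02, with the SR-related list also at 4 without M03 or M12. The exon junction complex and NMD genes gave 1 in place of 5 in the gastrocnemius without M02. None of these genes was called in either muscle with all libraries in the fit. The pair with the smallest p in each of these 3 lists was Acin1 and Dhx16, Srrm1 and Clk1, and Rbfox2 and Sfpq in the gastrocnemius, and Sf1 and Cwc22, Srek1 and Pnisr, and Rbfox1 and Sfpq in the quadriceps.

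Markers of other cell types moved with some groups. In the quadriceps, 6 of 7 tested adipocyte markers were lower in flight at an unadjusted p under 0.05, with a median log2 change of -1.08 and summed levels of 347 to 521 TPM in flight against 474 to 800 TPM on the ground, and 3 of the 7 had such a p without flight mouse M12. In the gastrocnemius, blood markers had a median log2 change of -0.42, with 0 of 5 at an unadjusted p under 0.05 by limma. That median was -0.20 without ground mouse M03 and -0.86 without ground mouse M08. Schwann cell markers, which mark nerve, had a median of 0.33 there, with all 6 tested above 0 and 0 at that p. Between the muscles, 5 of these 6 were lower in the quadriceps at an unadjusted p under 0.05 by limma, with summed levels of 60 to 96 TPM against 151 to 325 TPM. The part of these shifts in the members' values was not tested.

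The second question is how the transcripts of the members were themselves spliced. Of the 26 events, 24 were skipped exons and 2 were pairs of mutually exclusive exons, in Hnrnpm and U2af1l4. By annotation, 12 of the skipped exons were coding, 7 gave an included form annotated only as NMD or noncoding, and 5 lay in an untranslated region or held the stop codon. Inclusion is given as PSI, the percent of transcripts with the exon, computed from the junction reads after correction for length. For a mutually exclusive pair, PSI is the share of the first exon against the second, and not a percent of all transcripts. After the filter (more than 10 junction reads on average in flight and in ground, and PSI not at 5% or less, or 95% or more, throughout), 23 events remained in the gastrocnemius and 22 in the quadriceps. The members' events held 1549 to 2742 junction reads per sample, and most events had well under 100 reads per sample.

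No event of a member passed the test of flight against ground. None was called in the gastrocnemius (0.378% of all 2118 events were) or in the quadriceps (0% of 2062), and none had an unadjusted p under 0.05 by limma, a mark that 9.49% and 7.61% of all events reached. A quasi-binomial fit of the reads, added after the data were seen, called none either, and gave 0 and 1 member events at that mark. In the quadriceps there was also 1 with a pseudocount of 1 and 1 with limma on PSI, and 0 to 3 as single samples were left out, with 3 without ground sample 3. In the gastrocnemius there were 0 to 1 as samples were left out. The smallest adjusted p was 0.603 in the gastrocnemius and 0.665 in the quadriceps. In the gastrocnemius no event had separate groups, against 8.22% of all events higher in flight and 7.98% lower. In the quadriceps 3 had all flight samples below the ground samples and 0 above, against 6.11% and 6.64% of all events. They were Hnrnpd exon 7, Hnrnpdl exon 8 and Srsf7 exon 7. The study's own test of these junction reads called far more events in both muscles than limma called here. It reported splicing changes in transcripts of RNA-binding proteins, and its lists hold events of Hnrnpd and Hnrnph1. The lack of a call by limma thus does not show that the splicing of the members was unchanged.

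Hnrnpd exon 7, the first sequence above, had the widest gap with close replicates. In the quadriceps its PSI was 59.1%, 62.4% and 62.5% in the ground samples and 43.8%, 37.1% and 44.2% in the flight samples, with 39 to 111 junction reads each. The PSI difference was -19.7 percentage points, and the log2 ratio of inclusion to skipping was -1.13 with a 95% interval of -2.30 to 0.04 (limma adjusted p = 0.665). In the gastrocnemius it was 47.3%, 58.1% and 53.8% on the ground and 51.3%, 44.4% and 39.4% in flight, a difference of -8.03 points (limma adjusted p = 0.776) with overlapping groups. The gene's total level was 54.0 ± 1.28 and 60.3 ± 0.94 TPM (SD, n = 3) in the gastrocnemius on the ground and in flight, and 59.8 ± 4.51 and 66.0 ± 3.69 TPM in the quadriceps.

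In the related exons flight and ground overlapped in both muscles. Hnrnpdl exon 6 was included at 93.4% to 100% in the gastrocnemius and at 94.9% to 100% in the quadriceps, and flight and ground means differed by 0.876 and 0.535 points. Hnrnpab exon 7 was mostly skipped, at 35.9%, 21.7% and 20.4% on the ground and 22.3%, 26.9% and 22.8% in flight in the gastrocnemius, and at 21.2%, 27.8% and 36.0% against 21.8%, 34.6% and 25.2% in the quadriceps. The 3 paralogous exons thus stood at different levels, with Hnrnpdl near full inclusion, Hnrnpd in between and Hnrnpab low. A test of the difference between the exons was not run.

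Hnrnpdl exon 8 (chr5:100035635-100035739, minus strand, 105 bases), which lies past the stop codon of a transcript annotated as NMD, was at 21.4%, 23.1% and 27.8% on the ground and 12.2%, 16.4% and 14.7% in flight in the quadriceps, a difference of -9.67 points (limma adjusted p = 0.800). In the gastrocnemius it was at 15.8%, 16.7% and 12% on the ground and 3.45%, 15.2% and 14.3% in flight. Srsf7 exon 7 was at 88.0%, 92.8% and 100% on the ground and 81.4%, 87.1% and 87.2% in flight in the quadriceps (-8.38 points, limma adjusted p = 0.725). In the gastrocnemius its ground samples spread from 70.1% to 96.4% and took in all the flight samples. The separation in these exons was thus seen in the quadriceps and not in the gastrocnemius, and that difference was not tested.

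Hnrnph1 exon 5, whose skipping shifts the frame, was mostly included, at 100%, 87.8% and 100% on the ground and 100%, 96.1% and 91.3% in flight in the gastrocnemius, and at 95%, 100% and 100% against 82.1%, 100% and 92.3% in the quadriceps (limma adjusted p = 0.955 and 0.755). Hnrnph1 exon 13, which holds the stop codon of the reference form, was at 91.3% to 100% on the ground and 89.3% to 95.2% in flight in the gastrocnemius (limma adjusted p = 0.621). Hnrnph3 exon 3, the near copy of Hnrnph1 exon 5, rested on 12 to 35 reads per sample and went in opposite directions, from 50.8 ± 6.76% to 67.1 ± 10.8% (SD, n = 3) in the gastrocnemius and from 88.9 ± 19.2% to 60.7 ± 35.8% in the quadriceps. Neither difference passed the test.

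The best covered event was exon 8 of Hnrnpa2b1 (120 bases), with 501 to 963 reads per sample. It was included at 88.4 ± 2.02% on the ground and 88.4 ± 1.03% in flight in the gastrocnemius, and at 88.1 ± 5.28% and 88.1 ± 4.21% in the quadriceps (SD, n = 3). The 95% interval of the log2 ratio of inclusion to skipping was -0.52 to 0.53 in the gastrocnemius and -1.01 to 0.95 in the quadriceps. Hnrnpm exon 3 was at 38.9%, 45.0% and 50.8% on the ground and 35.7%, 37.6% and 39.3% in flight in the gastrocnemius (-7.39 points, limma adjusted p = 0.754), and between 27.1% and 38.6% in the quadriceps. The gastrocnemius groups overlapped through a ground sample at 38.9% and a flight sample at 39.3%.

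The 7 exons whose included form is annotated only as NMD or noncoding had group means under 50% throughout. Their group means ranged from 3.28% to 26.2% on the ground and 2.19% to 42.4% in flight in the gastrocnemius, and from 1.45% to 37.1% and 0.629% to 39.3% in the quadriceps. In the gastrocnemius the top was Hnrnpll exon 7, at 42.9%, 18.2% and 17.6% on the ground and 29.0%, 54.5% and 43.6% in flight, on 10 to 28 reads a sample (16.2 points, limma adjusted p = 0.712). Sf3b1 exon 5 was at 7.46%, 10.3% and 5.26% on the ground and 11.1%, 10.3% and 13.2% in flight in the gastrocnemius. In the quadriceps its mean went the other way (-3.45 points), with 4%, 10.3% and 20% on the ground and 5.56%, 6.45% and 12% in flight. Snrpb exon 3 stayed between 1.12% and 5.6% in all samples. Srsf6 exon 3 in the quadriceps was at 6.67%, 4.55% and 100% on the ground and 15.4%, 40.7% and 28.9% in flight. The value of 100% came from ground sample 3, the sample with many events at 0 reads, and without it the difference was 22.7 points in place of -8.73.

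The remaining well covered events lay close together or were thin. The first of the mutually exclusive exons of Hnrnpm had a share of 84.3% to 92.9% against the second in the gastrocnemius and 83.3% to 95.6% in the quadriceps. The second is exon 14, of 803 bases, which as a skipped exon was included at 94.4% to 100% and 89% to 100%. Exons 13 and 14 of Hnrnpm lie side by side in an annotated coding transcript, as do exons 4 and 5, the pair of U2af1l4. The share in a pair thus does not give the inclusion of either exon. In U2af1l4, a relative of U2af1, the first exon of the pair was used at 21.1 ± 9.34% on the ground and 18.2 ± 8.58% in flight in the gastrocnemius, and at 36.6 ± 15.7% and 18.1 ± 11.1% in the quadriceps (SD, n = 3), on 9 to 43 reads. U2af2 exon 3, of 45 bases, in the large subunit that binds the polypyrimidine tract, was included at 72.8% to 100% in all samples. Srsf2 exon 3, in an untranslated region, was included at 0% to 9.28%. Limma gave no unadjusted p under 0.05 for any of these between flight and ground.

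**Figure D5:**
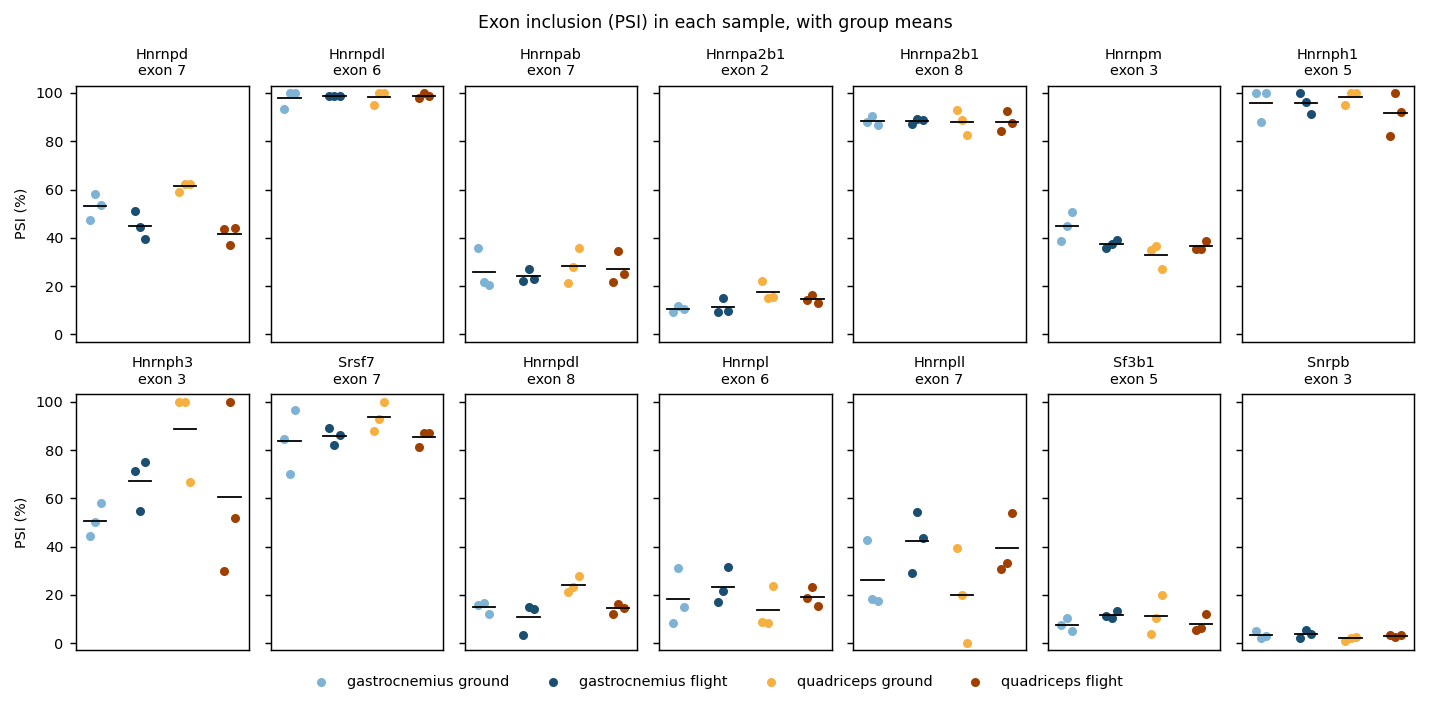
PSI (percent) of 14 member exons in each sample, with colours for the 4 groups and black lines for group means. Hnrnpd exon 7 in the quadriceps had 59.1% to 62.5% on the ground and 37.1% to 44.2% in flight, with no overlap, while Hnrnpab exon 7 and Hnrnpa2b1 exon 8 overlapped in both muscles.

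Between the muscles, 20 member events were kept in both, and none was called (8.29% of all 1858 events were). At an unadjusted p under 0.05 there was 1, against 17.3% of all events, with 2 by limma on PSI or the quasi-binomial fit and 0 to 2 as single samples were left out. It was Hnrnpa2b1 exon 2, which makes the difference between the A2 and B1 proteins, as the exon is used in B1 alone. Its PSI was 9.44%, 11.8% and 10.7% on the ground and 9.49%, 14.9% and 9.57% in flight in the gastrocnemius, and 22.1%, 15.3% and 15.6% on the ground and 14.1%, 16.3% and 13.1% in flight in the quadriceps. The difference was 5.10 points (log2 ratio 0.64, limma adjusted p = 0.262), and the muscles overlapped through 1 gastrocnemius sample at 14.9%. The splicing tables do not tie samples to mice, so the shared mice were ignored in this fit.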

How the data were processed

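RNA from 12 libraries (6 mice, both muscles; stranded mRNA libraries, single-end reads of 50 bases per the study's methods) was analysed from the deposited files. The authors computed the TPM values with kallisto 0.46.0 and summed them per gene with tximport. They aligned reads with STAR 2.7.1a to mm10 and counted junction reads for skipped and mutually exclusive exons with rMATS-turbo, leaving out events with few reads or extreme PSI. The tool versions and DESeq2 1.26.0 are from the submitters' processing notes, and the transcript annotation behind the TPM values is not given in the sources used here. The splicing tables also hold the authors' own comparison of flight with ground, as deposited p-values and FDR values and a difference of PSI (a score between -1 and 1), and neither was used.

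Symbols were matched for 35856 of 36008 gene IDs. Expression was tested with limma 3.58.1 (R 4.3.3) on log2(TPM + 1), with a variance trend, two-sided, over the 10481 genes above 5 TPM in at least 1 library, with Benjamini-Hochberg adjustment. A fold change on this scale understates that of genes with a low level. TPM keep no read depth, so their counting error is unknown. The interaction and the muscle difference had the mouse as a block, since the titles name the mouse of each library (correlation of deviations between a mouse's muscles -0.12 to 0.33). For splicing, inclusion and skipping reads per effective base (after adding 0.5) gave a log2 ratio that limma tested, and an event was called where the adjusted p was below 0.05 and PSI moved by over 5 points. PSI of mutually exclusive exons is the share of the upstream exon against the other exon of the pair. The scripts were tested on simulated data. Exon positions and sequences came from GENCODE vM21, of the same build as the files, and exon numbers are those of the annotated transcript that holds the exon. The genes named were the most abundant of each class, those with the smallest p of each class per comparison, the best covered events and the events of Hnrnpd and Hnrnph1, which the study lists from these samples and which are therefore no independent evidence. Hnrnpdl exon 8, Hnrnph3 exon 3, Hnrnpm exon 14, Hnrnpa2b1 exon 2 and Hnrnpll exon 7 were chosen after their values were seen. The members and lists were chosen with earlier results of these data known. Each mouse is a separate animal, but p-values over 3 mice a group measure only the spread between these mice, and an exact permutation test of 3 against 3 could not go below 0.1.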

Additional observations from a re-analysis of the deposited data

How the results depend on the processing

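No member was called for flight in either muscle, for the interaction or for splicing under any alternative run, which were another pseudocount, no filter on low values, scaling by the median ratio, no variance trend, all 12 libraries in 1 fit, each library or mouse left out, a minimum of 20 junction reads, limma on PSI and, added after the data were seen, the quasi-binomial fit. The edgeR fit of junction reads was not run. Between the muscles, 18 members at an adjusted p under 0.05 became 10 with no filter, 8 with the median ratio and 8 to 14 with a mouse left out, with 8 without flight mouse M11 and 11 without ground mouse M02 or M03. The count of called members between the muscles was 0 to 1 with a mouse left out: Snrpd1 passed 1.5-fold without ground mouse M03 and without flight mouse M20. Srsf2 passed an adjusted p of 0.05 between the muscles without ground mouse M02 (0.0468). In the gastrocnemius, 11 members higher at an unadjusted p under 0.05 became 7 without the variance trend.

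Replicate numbers did not pair flight with ground mice (correlations of deviations -0.18 to 0.11). With the number as a replicate block, 0 members were called in each muscle, the members higher in the gastrocnemius at an unadjusted p under 0.05 were 7 in place of 11, and calls over all genes went from 24 to 0 in the gastrocnemius and from 3 to 0 in the quadriceps. Without the mouse as a block, 19 members passed between the muscles. No paired analysis of splicing was possible because the tables do not name their samples. Calls over all genes in the gastrocnemius were 133 without flight mouse M11, and calls over all events there were 8 by the main test, 16 by limma on PSI and 36 by the quasi-binomial fit, which made 4 in the quadriceps.

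With a sample left out, these differences, all without a call, changed sign. The flight effect on PSI, in percentage points, ran in the gastrocnemius from -7.79 to 1.75 for the U2af1l4 pair, -4.21 to 2.12 for Hnrnph1 exon 5, -0.408 to 1.26 for Snrpb exon 3, -7.02 to 6.85 for Srsf6 exon 3, -0.823 to 1.17 for Hnrnpa2b1 exon 8, -1.14 to 1.59 for Hnrnpa2b1 exon 2, -4.64 to 8.48 for Srsf7 exon 7, -4.83 to 2.93 for Hnrnpab exon 7 and -1.32 to 1.97 for Hnrnpdl exon 6. In the quadriceps it ran from -0.142 to 5.99 for the Hnrnpm pair, -7.17 to 0.83 for Sf3b1 exon 5, -42.3 to 7.68 for the form of Srsf6 exon 3 with 165 bases, -25 to 22.7 for its form with 268 bases, -5.24 to 8.35 for U2af2 exon 3, -3.13 to 1.98 for U2af2 exon 4, -2.78 to 2.47 for Hnrnpa2b1 exon 8, -1.29 to 1.66 for Srsf2 exon 3, -4.8 to 2.76 for Hnrnpab exon 7 and -1.16 to 1.38 for Hnrnpdl exon 6. The muscle difference in PSI ran from -2.03 to 1.97 for Sf3b1 exon 5, -3.08 to 1.39 for Hnrnph1 exon 5, -8.37 to 15.5 for Srsf6 exon 3, -6.67 to 0.119 for U2af2 exon 3, -1.52 to 1.11 for Hnrnpa2b1 exon 8 and -0.767 to 1.18 for Hnrnpdl exon 6. The interaction for Snrpd3 ran from -0.0463 to 0.298 on the log2 scale. Over the events taken by the rule for named items, 49 values changed sign and 496 kept their direction and call. For the other events described, such as Hnrnpdl exon 8, the calls alone were recomputed. Depth limits the splicing values, since most rest on fewer than 100 junction reads.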
